A study of Rattus norvegicus with 18 samples.

Results

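Interleukins and interleukin receptors were followed in rat heart allografts and T cells on 18 one-colour expression arrays. Members were the genes whose single platform symbol begins with Il followed by a digit, 51 of 14217 genes with 1 symbol, and they include decoy receptors, antagonists and binding proteins. They were read by 64 probe sets (groups of short oligonucleotides that report 1 transcript). For the 10 genes with more than 1 probe set, the probe set with the highest mean over the 18 arrays was kept. Il13ra1 was left out because both of its probe sets name several genes. Il18r1, Il18rap, Il12rb1, Il12rb2, Il15ra, Il21, Il21r, Il27, Il17a and Il4i1 were not analysed here.

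Hearts of adult male Wistar Furth rats (RT1.Au) were transplanted into the abdomen of ACI recipients (RT1.Aa), a pairing of inbred strains that differ at the rat major histocompatibility complex. 1 set of recipients was untreated. Another was given cyclosporine by mouth, which inhibits the phosphatase calcineurin and so the induction of T cell cytokine genes, at 10 mg/kg/day over the first 3 days, a dose the labels call sub-therapeutic. The third set received the same cyclosporine plus 1 mg/kg of the allochimeric peptide [a1h1/u]-RT1.Aa through the portal vein at transplantation. The labels mention no portal injection for recipients of cyclosporine alone, and peptide and injection therefore cannot be told apart. The heart and T cells were sampled on days 1, 3 and 7, with 1 array for each combination of tissue, treatment and day. The labels carry the Wistar Furth strain for T cells as well as hearts and describe extraction from heart only, so the organ and the rat strain that gave the T cells are not settled here. They also do not say whether arrays came from separate animals. P-values therefore measure the spread between these arrays.

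Interleukins are secreted proteins through which leukocytes and tissue cells signal to each other. Most bind receptors built from a ligand-specific chain and a chain shared within a family, such as the common gamma chain of the IL-2 family or gp130 of the IL-6 family, and signal through Janus kinases and STAT factors, while the IL-1 family signals through MyD88 and IRAK kinases. In a rejecting graft they act both in the inflammation that follows surgery and in the later T cell response, and several members exist to restrain the others by binding the ligand or occupying the receptor without signalling.

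Levels below are array intensities as deposited, and differences are on a log2(intensity + 16) scale, which understates changes of weakly expressed genes. A member counted as above the low range of its array when it exceeded that array's 40th percentile. By that measure 18 of the 51 members were above it on all 18 arrays, among them Il1b, Il15, Il16, Il18, Il18bp, Il2ra, Il2rb, Il2rg, Il4r, Il6r, Il6st, Il7r and Il17ra. Another 13 were above it on 0 arrays: the T cell cytokines Il3, Il4, Il5, Il13 and Il17f, and Il5ra, Il11, Il12a, Il1rl2, Il20rb, Il24, Il36b and Il36rn. Il2, the T cell growth factor, exceeded it on 2 T cell arrays, with 57.5 to 144 over the 9 T cell arrays and 20.5 to 51.7 over the 9 hearts. Differences of a gene were tested with limma where its probe set exceeded that percentile on at least 3 arrays of the fit, which left 34 members in heart, 29 in T cells and 36 in the fits over 18 arrays, and 15 in none.

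**Figure D1:**
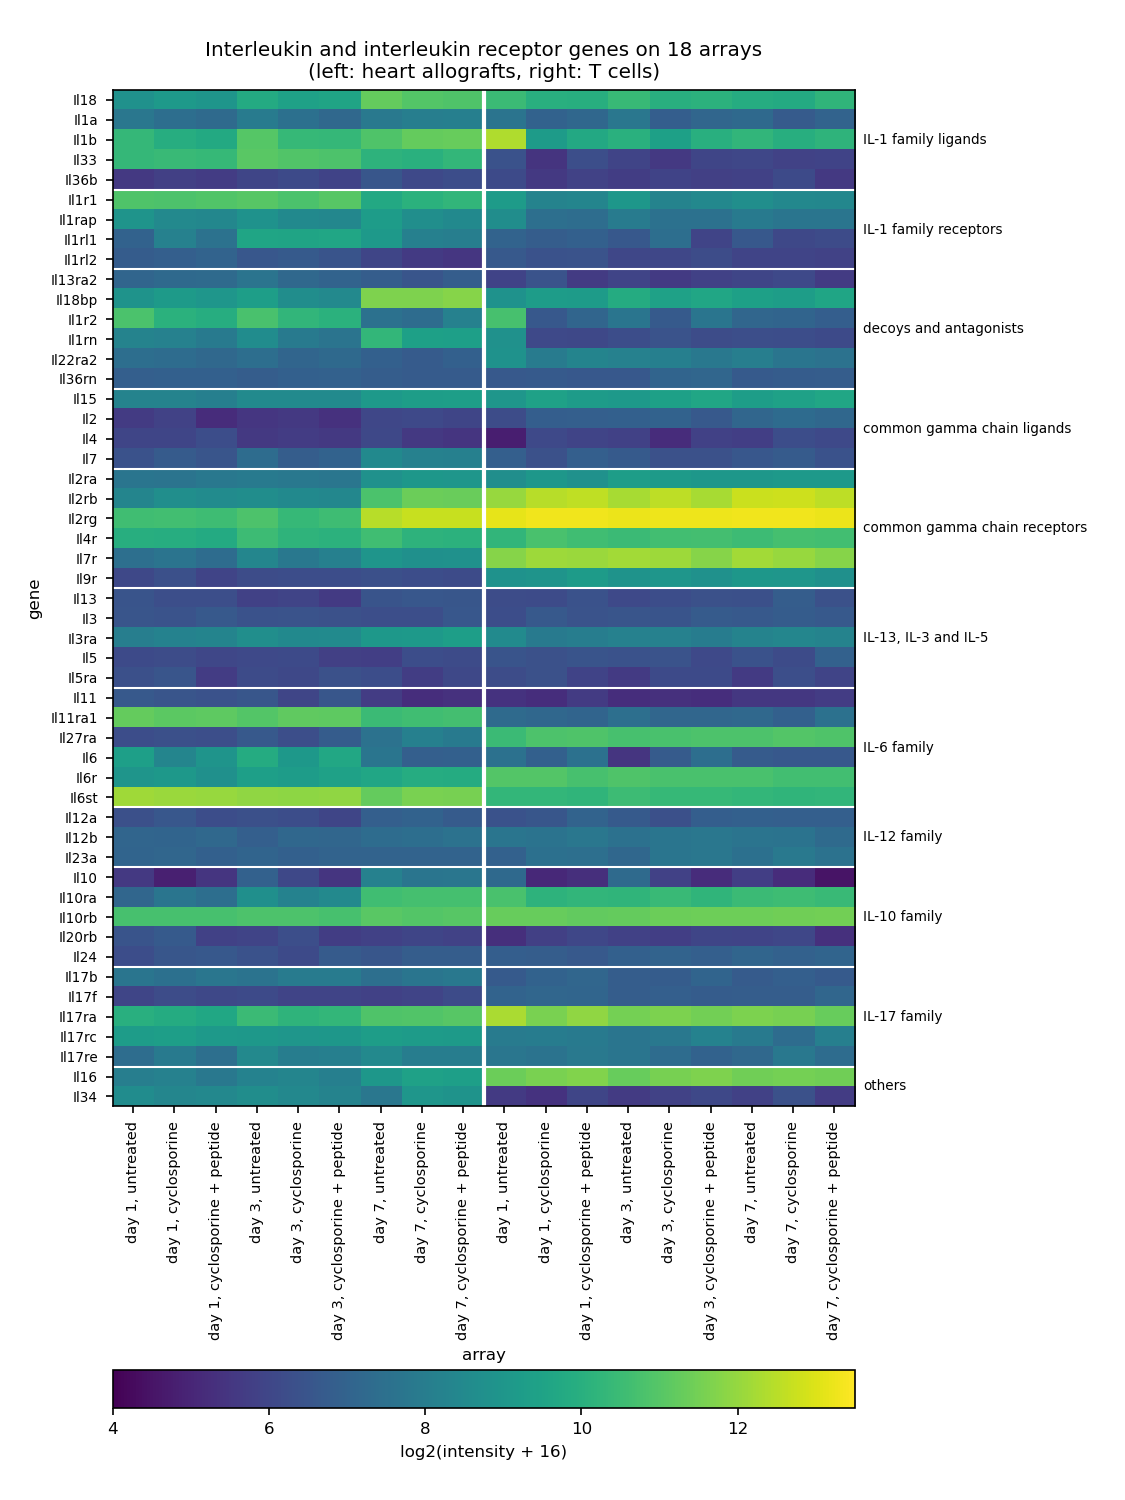
Level of the 51 members on each array as log2(intensity + 16), with genes in rows grouped by family and arrays in columns, 9 hearts left of the white line and 9 T cell arrays right of it. Il2rb, Il2rg, Il10ra and Il18bp brighten in the day 7 hearts, Il1r2 and Il6 darken there, and Il1b and Il1r2 stand out on the untreated day 1 T cell array.

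The upper quartile of intensity was 743 to 758 on heart arrays and 728 to 740 on T cell arrays. All 5 cardiomyocyte genes read on the array were above the 40th percentile in each heart and none was in the T cell samples, whereas all 10 T cell list genes (Cd3d, Cd3e, Cd3g, Cd2, Cd5, Cd8a, Cd8b, Cd4, Trat1 and Lck) were above it in each T cell sample. T cell samples also carried all 4 B cell list genes and all 8 macrophage list genes above it. The untreated day 1 T cell array stood apart: its summed intensity over the 5 neutrophil list genes was 36348, against 1074 to 3225 on the other 8 T cell arrays, and its highest correlation with another T cell array was 0.964. In hearts the summed T cell list was 1397 to 3069 on days 1 and 3 and 19861 to 24353 on day 7, and the macrophage list was 13394 to 14269, 20545 to 26711 and 50462 to 53070 on days 1, 3 and 7. The neutrophil sum in hearts was 4070 to 10569 on days 1 and 3 and 1381 to 2143 on day 7, and the endothelial sum was 6074 to 8141 and then 2353 to 2980. These marker levels move with day, and their part in the changes below was not tested. From tissue RNA, fewer cells of a type and less RNA per cell cannot be told apart.

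The main change was between day 3 and day 7 in the heart. From day 1 to day 7, 23 of 34 members tested rose and 6 fell, or 85.3% called, where limma called 64.7% of all probe sets tested (30.9% higher and 33.8% lower). The median difference was 0.88 over the members and -0.02 over all probe sets. From day 3 to day 7, 21 rose and 8 fell, where 56.4% of all probe sets were called (26.9% higher and 29.4% lower). Il10, Il12b and Il27ra exceeded the 40th percentile in hearts only on day 7, so they had to differ to be tested. Il7 exceeded it only in day 7 hearts and the untreated day 3 heart. Il22ra2 exceeded it in 3 hearts, all of days 1 and 3, so the filter favoured its fall. Over the first interval, day 1 to day 3, 13 members rose and 0 fell, or 38.2%, where 27.5% of all probe sets were called (14.6% higher and 12.9% lower). That count was 6 without the cyclosporine hearts and 2 without the cyclosporine plus peptide hearts. Il33 passed whichever treatment was left out (0.48, 0.62 and 0.62, adjusted p = 0.0200, 0.0281 and 0.0284), and each of the other 12 rises failed to pass, or was not tested, without at least 1 of the treatments. Among all probe sets called over that interval 53.1% were higher, and 35.2% once each array was centred on its median, where the members split into 13 higher and 1 lower.

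**Figure D2:**
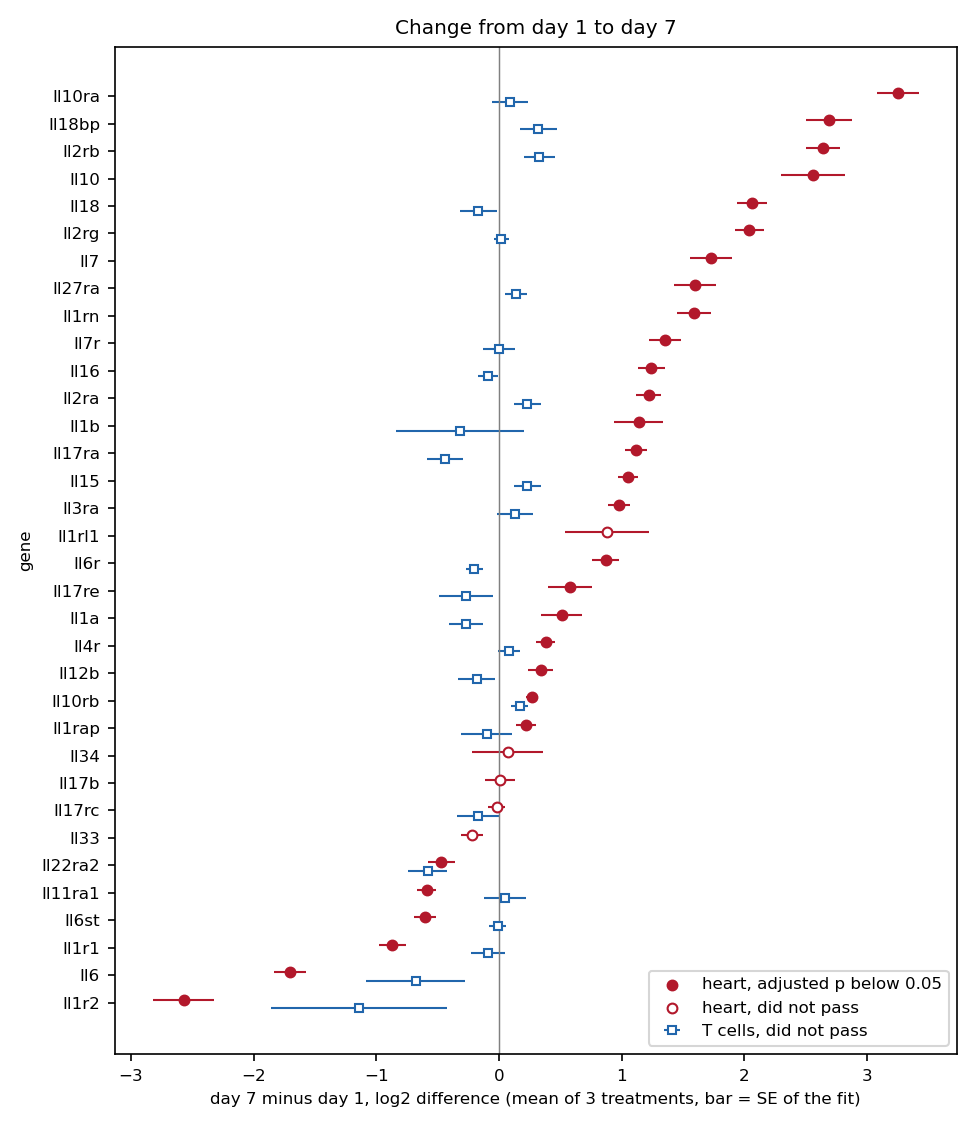
Difference from day 1 to day 7 (x axis, log2, mean over 3 treatments, bars are SE of the limma fit) for the members tested in heart (circles, filled where the adjusted p was below 0.05) and in T cells (open squares, none of which passed). Heart differences run from -2.57 for Il1r2 to 3.25 for Il10ra.

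Chains of the IL-2 family receptors rose together in the heart by day 7, all 5 that were tested, with a median difference of 1.35. Il2rb, the beta chain shared by the IL-2 and IL-15 receptors, read 304, 399 and 368 on day 1 in the untreated, cyclosporine and cyclosporine plus peptide hearts, 385, 347 and 323 on day 3, and 1796, 2625 and 2559 on day 7. Days 1 and 3 overlapped, and every day 7 heart was above all of them, with the untreated heart the lowest of the day. The difference from day 1 to day 7 was 2.64 ± 0.14 (SE, adjusted p = 3.69e-06) and that from day 1 to day 3 was -0.02 ± 0.14. Il2rg, the common gamma chain shared by receptors of the IL-2 family, read 1538, 1560.2 and 1471 on day 1, 1818, 1305 and 1470.4 on day 3, and 5671, 6706 and 6595 on day 7. It followed the same course, with a rise of 2.04 ± 0.12 (adjusted p = 5.69e-06). Il2ra, the high-affinity chain of the IL-2 receptor, read 184 to 209 on day 1, 198 to 228 on day 3 and 426 to 506 on day 7, and rose by 1.22 ± 0.10. Il7r, the IL-7 receptor alpha chain kept by resting and memory T cells, differed in timing, since it had already risen by day 3: it read 161, 183 and 148 on day 1, 315, 209 and 261 on day 3, and 476, 422 and 433 on day 7. Its 3 days did not overlap, and the differences were 0.61 ± 0.13 by day 3 (adjusted p = 0.0138) and 1.35 ± 0.13 by day 7. Il4r, the IL-4 and IL-13 receptor alpha chain, rose by 0.37 ± 0.08 by day 3 and then differed by 0.01 ± 0.08 from day 3 to day 7.

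Among the ligands of that family, only Il15 and Il7 could be tested, and both rose. Il7, a survival factor for lymphocytes made mainly by stromal cells, read 67, 89.9 and 76 on day 1, 149.5, 95 and 112 on day 3, and 345, 273 and 268 on day 7. The untreated heart was the highest on days 3 and 7, and the rise by day 7 was 1.73 ± 0.17 (adjusted p = 5.48e-05). Il15, which sustains memory T cells and natural killer cells, read 260.3 to 288 on day 1, 357 to 359 on day 3 and 536 to 633 on day 7, with differences of 0.35 ± 0.08 and 1.05 ± 0.08 from day 1. Il3ra, the IL-3 receptor alpha chain, rose by 0.41 ± 0.09 and 0.98 ± 0.09. Il16, a chemoattractant for CD4+ cells, rose by 1.24 ± 0.11 by day 7 and differed by 0.19 ± 0.11 on day 3.

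The IL-10 family held the member with the largest rise by day 7, and its receptor chains Il10ra and Il10rb both rose, while Il10 entered the heart test only through its day 7 level. Il10ra, the ligand-binding chain of the receptor for the anti-inflammatory cytokine IL-10, read 123, 189 and 159 on day 1, 406, 280.5 and 344 on day 3, and 1514, 1647 and 1653 on day 7. The 3 days did not overlap, and it rose by 1.06 ± 0.17 by day 3 (adjusted p = 0.00534) and 3.25 ± 0.17 by day 7 (adjusted p = 3.74e-06). A second, dimmer Il10ra probe set gave 0.34 by day 3 (adjusted p = 0.193) and 1.78 by day 7 (adjusted p = 6.86e-05), so the day 3 difference passed on 1 of 2 probe sets. Il10 itself read 31.8, 12.9 and 28.7 on day 1, 109, 51.1 and 27.6 on day 3, and 273, 192 and 195 on day 7, with a fitted difference of 2.56 ± 0.26 by day 7. Its untreated heart was the highest on each day. Il10rb, the accessory chain used by several IL-10 family receptors, was at 1685 to 2121 in every heart and rose by only 0.27 ± 0.05.

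Of 4 IL-1 family ligands tested, 3 rose by day 7. Il18, the inflammasome-processed cytokine that drives interferon gamma production, read 436, 541 and 480.4 on day 1, 882, 680 and 739 on day 3, and 2402, 1957 and 1885 on day 7, and rose by 0.64 ± 0.12 and then to 2.06 ± 0.12 above day 1 (adjusted p = 6.01e-06). Il18bp, the secreted protein that binds and neutralises IL-18, read 454, 562 and 488 on day 1, 629.7, 384 and 344 on day 3, and 3262, 3238 and 3446 on day 7. It therefore rose after day 3, whereas Il18 was already higher on day 3: the difference from day 1 was -0.19 ± 0.19 on day 3 and 2.69 ± 0.19 on day 7 (adjusted p = 1.16e-05). Without the untreated hearts, Il18bp was lower on day 3 (-0.51 ± 0.09, adjusted p = 0.0137). Il1b, the principal inflammasome-released cytokine, read 1281, 945 and 849.5 on day 1, 2008, 1291 and 1281 on day 3, and 1849, 2458 and 2479 on day 7. The untreated heart was the highest on days 1 and 3 and the lowest on day 7. The difference was 0.56 ± 0.20 by day 3 (adjusted p = 0.0727) and 1.14 ± 0.20 by day 7 (adjusted p = 0.00132). Il1a differed by 0.51 ± 0.17 (adjusted p = 0.0321), which did not pass without the cyclosporine hearts (adjusted p = 0.176) or without the cyclosporine plus peptide hearts (adjusted p = 0.157).

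Il33 and its receptor peaked on day 3. Il33, an alarmin stored in the nuclei of endothelial and stromal cells, read 1252, 1382 and 1314 on day 1, 2126, 1941 and 1832 on day 3, and 1129, 1022 and 1230.4 on day 7. All 3 day 3 hearts were above the other 6, with a rise of 0.57 ± 0.09 by day 3 (adjusted p = 0.00479) and a fall of 0.80 on the log2 scale from day 3 to day 7 (adjusted p = 0.000166). Its second probe set rose by 0.98 and fell by 0.86 over the same intervals. Il1rl1, the IL-33 receptor ST2, read 111, 271 and 175 on day 1, 760.4, 723 and 783 on day 3, and 547, 266 and 255 on day 7. Day 3 was the highest under each treatment, with differences of 2.01 ± 0.34 from day 1 (adjusted p = 0.00656) and -1.14 ± 0.34 from day 3 to day 7 (adjusted p = 0.0225). Without the cyclosporine plus peptide hearts neither passed (1.99, adjusted p = 0.0544, and -0.93, adjusted p = 0.158).

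Of the 4 decoys and antagonists tested, 2 rose and 2 fell, and Il1r1 and Il1r2 fell while the antagonist of the same receptor system rose. Il1r2, the decoy receptor that binds IL-1 without signalling, read 1782, 1041 and 954 on day 1, 1752, 1191 and 1052 on day 3, and 173, 148 and 271 on day 7. Days 1 and 3 overlapped and day 7 lay far below both, with a difference of -2.57 ± 0.25 (adjusted p = 5.76e-05). Il1r1, the signalling receptor, read 1799 to 1941 on day 1, 1785 to 2094 on day 3 and 838 to 1199 on day 7, and fell by 0.87 on the log2 scale. Il1rn, the receptor antagonist, read 291, 270 and 219 on day 1, 375, 218 and 187 on day 3, and 1224, 666 and 648 on day 7, and rose by 1.59 ± 0.14 (adjusted p = 3.55e-05). Il1rap, the accessory chain that the signalling receptor recruits, differed by 0.22 ± 0.08 (adjusted p = 0.0321), and adjusted p was 0.0552 to 0.133 under 5 other settings, both rescalings and each left-out treatment.

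Of 5 IL-6 family members tested, Il6r rose and Il6, Il6st and Il11ra1 fell by day 7, and Il27ra entered the test only through its day 7 level. Il6, the cytokine that drives the acute phase response, rose and then fell. In the untreated, cyclosporine and cyclosporine plus peptide hearts Il6 read 641, 305 and 464 on day 1, 915, 520.1 and 819.8 on day 3, and 190.2, 102 and 106 on day 7. Within each treatment day 3 was the highest and day 7 the lowest, with a rise of 0.68 ± 0.13 by day 3 (adjusted p = 0.00862) and a difference of -2.38 ± 0.13 from day 3 to day 7 (adjusted p = 7.58e-06). Il6r, the ligand-binding chain, read 414 to 516, 597 to 675 and 771 to 932 on the 3 days and rose by 0.87 ± 0.11 by day 7. Il6st, the shared signalling chain gp130, read 4147 to 4526, 3727 to 3920.2 and 2432 to 3085 and fell by 0.60 on the log2 scale, and its other 3 probe sets gave -0.48 to -0.82. Il11ra1, the IL-11 receptor alpha chain, fell by 0.59, and Il11 was not above the 40th percentile on any array. Il27ra, which pairs with gp130 to form the IL-27 receptor, read 59.7 to 63.2 on day 1, 62.8 to 93.7 on day 3 and 176 to 267 on day 7, with a fitted difference of 1.60 ± 0.17.

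Of 4 IL-17 family members tested, 2 rose by day 7. Il17ra, the chain common to the family's receptors, read 797 to 999 on day 1, 1142 to 1392 on day 3 and 1855 to 2098 on day 7, without overlap, and rose by 0.48 ± 0.09 and 1.12 ± 0.09. Il17rc differed by -0.02 ± 0.07 from day 1 to day 7 and Il17b, a ligand, by 0.01 ± 0.12. Il17re, the chain that binds IL-17C, rose by 0.61 ± 0.18 on day 3 and differed by 0.58 ± 0.18 on day 7, and neither passed without the untreated hearts (0.38, adjusted p = 0.126, and 0.33, adjusted p = 0.0953) or without the cyclosporine plus peptide hearts (0.60, adjusted p = 0.178, and 0.59, adjusted p = 0.101). Il22ra2, the soluble protein that neutralises IL-22, fell by 0.47 by day 7, and was tested only through hearts of days 1 and 3. Il12b, the subunit shared by IL-12 and IL-23, reached 149 to 174 on day 7 from 116 to 132 on day 1, a difference of 0.34 ± 0.10. Il34, an alternative ligand of the macrophage growth factor receptor Csf1r, differed by 0.07 ± 0.29.

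**Figure D3:**
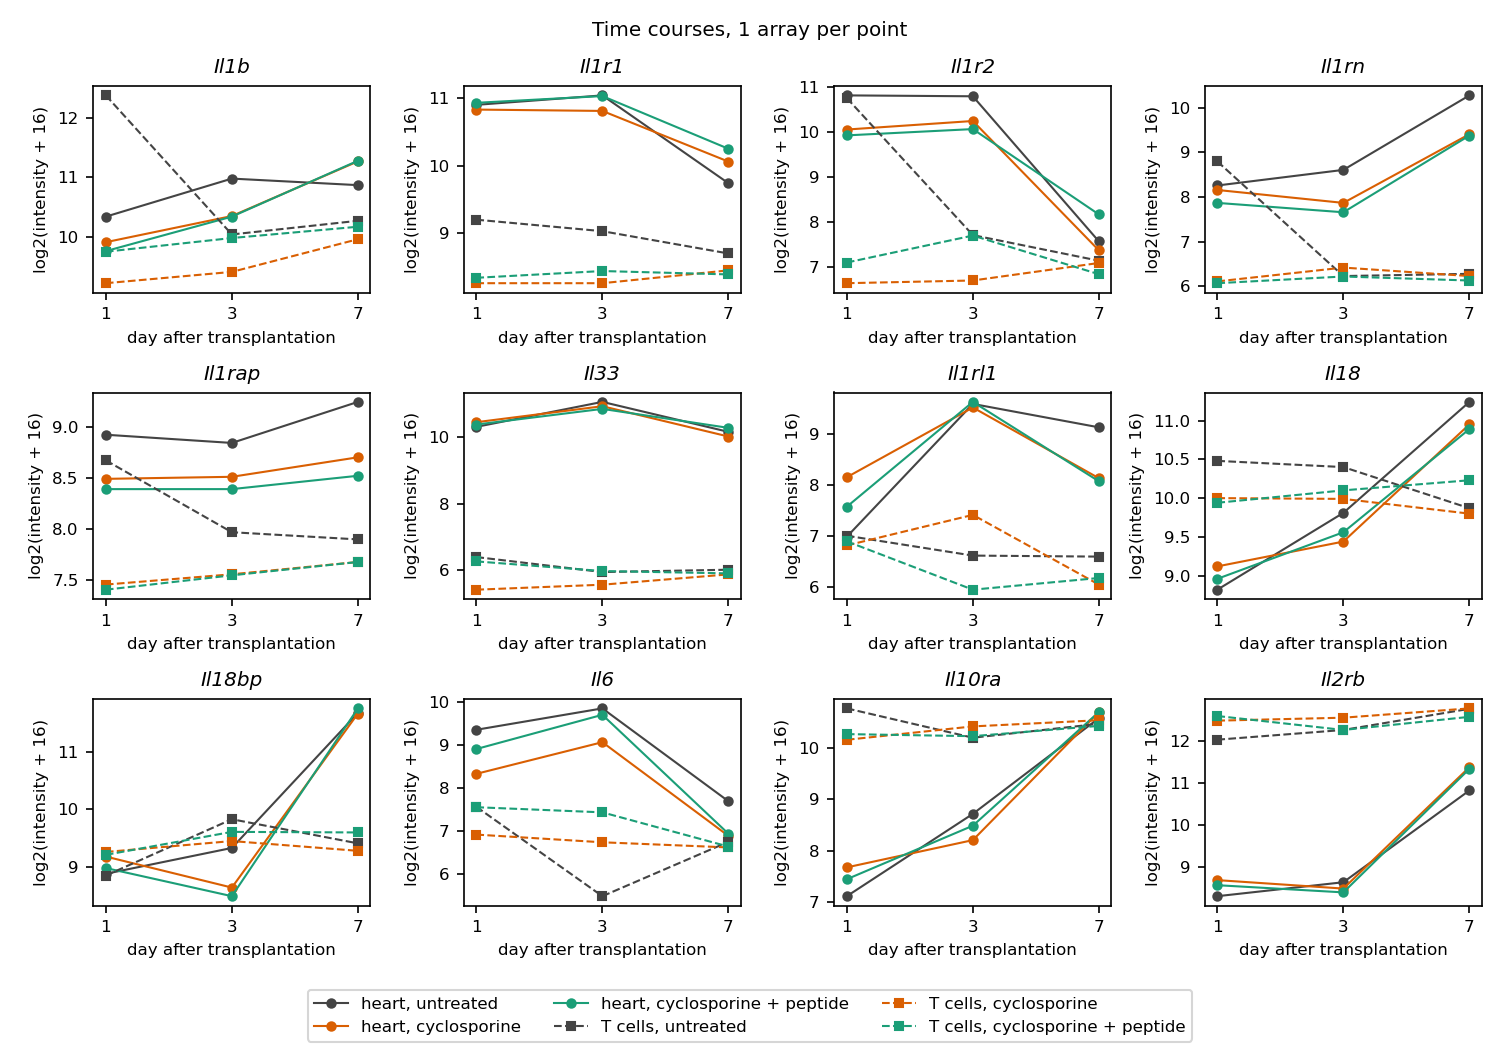
Levels of 12 members over days 1, 3 and 7 as log2(intensity + 16), with 1 array per point, solid lines for hearts, dashed lines for T cells and colours for treatment. Heart Il2rb stays level to day 3, heart Il18bp goes up to day 3 in the untreated and down in both treated hearts, and both are higher by day 7, Il10ra and Il18 climb from day 1, Il33, Il1rl1 and Il6 peak on day 3, and the T cell lines of Il1b, Il1r2 and Il1rn start high on the untreated day 1 array.

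Other genes of the same pathways were read from lists of shared receptor partners and of signal transducers, of which 14 of 17 and 21 of 22 had a probe set. Of 11 partners tested in heart, 6 rose and 3 fell by day 7, and 4 rose and 1 fell by day 3. Of all probe sets tested in heart, 30.9% were higher and 33.8% lower by day 7, and 14.6% and 12.9% by day 3. Ebi3, the subunit of IL-27 and IL-35, rose by 1.52 ± 0.17 by day 3 and 1.85 ± 0.17 by day 7. Casp1, the protease that matures IL-1 beta and IL-18, rose by 1.80 ± 0.10, and Sigirr, an inhibitory receptor of the IL-1 family, by 1.67 ± 0.14. Csf1r, which is also on the macrophage list, rose by 1.77 ± 0.09. The 3 that fell were Lifr (-1.11 ± 0.11), Ctf1 (-1.05 ± 0.09) and Ifnlr1 (-0.46 ± 0.12), the receptor for leukaemia inhibitory factor, the gp130 ligand cardiotrophin 1 and the interferon lambda receptor. Lifr exceeded the percentile set for testing only in hearts of days 1 and 3, so the filter favoured its fall. Sigirr exceeded that percentile in no day 1 heart, so the filter favoured its rise. Of 20 transducers tested, 15 rose and 3 fell by day 7, where 64.7% of all probe sets were called. Socs1, the feedback inhibitor of Janus kinases, rose most, from 47.6 to 66.4 on day 1 to between 1170.3 and 1396 on day 7, a difference of 4.16 ± 0.34. Stat4, which carries IL-12 signals, rose by 2.44 ± 0.11, Jak3, the kinase bound to the common gamma chain, by 1.81 ± 0.18, and Tyk2 by 1.46 ± 0.09. In hearts Stat4 exceeded the percentile set for testing only on day 7, so it had to differ to be tested. Socs1 exceeded that percentile only in day 7 hearts and the untreated day 3 heart, so the filter favoured its rise. Both are counted among the 15 transducers that rose. Stat3, the main IL-6 and IL-10 transducer, differed by -0.04 ± 0.08 and Socs3 by -0.23 ± 0.10, neither of which passed.

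To show the sequence in front of members whose levels moved in opposite directions or together, the 250 bases before the transcription start were read from RefSeq promoter windows (build GRCr8) for 38 of the 51 members. 9 motifs were searched on both strands, and the 4 windows printed were chosen after the matches were seen. The NF-kappaB motif, in capitals in the Il6 and Il1rn windows, occurred in 2 of the 38 members and in 1.3% of 33469 windows. It begins 68 bases before the Il6 start and 129 bases before the Il1rn start. The ETS core GGAAGT, in capitals in the Il10ra and Il27ra windows, occurred in 8 of the 38 members and in 19.2% of all windows. It begins 54 bases before the Il10ra start, and in Il27ra it lies on the opposite strand, 31 bases before the start. In both NF-kappaB matches the last 6 letters are also the NFAT motif on the opposite strand. The Il6 window lies at chr4:5894576-5894825 on the minus strand, that of Il1rn at chr3:27520072-27520321 on the plus strand and inside the span of the gene, that of Il10ra at chr8:54474787-54475036 on the minus strand, and that of Il27ra at chr19:41014480-41014729 on the plus strand. A match describes these letters and no factor binding was measured.
Il6: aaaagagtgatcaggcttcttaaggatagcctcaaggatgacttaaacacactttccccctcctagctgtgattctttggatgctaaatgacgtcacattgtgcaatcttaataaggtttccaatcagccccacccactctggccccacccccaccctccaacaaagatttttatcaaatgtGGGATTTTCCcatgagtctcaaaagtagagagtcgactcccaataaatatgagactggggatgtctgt
Il1rn: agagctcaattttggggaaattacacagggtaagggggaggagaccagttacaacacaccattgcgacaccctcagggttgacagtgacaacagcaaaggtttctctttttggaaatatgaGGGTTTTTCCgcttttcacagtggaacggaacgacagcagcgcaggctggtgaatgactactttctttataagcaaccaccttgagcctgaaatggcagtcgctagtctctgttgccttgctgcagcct
Il10ra: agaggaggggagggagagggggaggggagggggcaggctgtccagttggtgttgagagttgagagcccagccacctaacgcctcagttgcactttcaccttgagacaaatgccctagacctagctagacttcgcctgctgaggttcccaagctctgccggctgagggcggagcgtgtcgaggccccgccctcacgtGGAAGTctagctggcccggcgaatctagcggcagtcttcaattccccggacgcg
Il27ra: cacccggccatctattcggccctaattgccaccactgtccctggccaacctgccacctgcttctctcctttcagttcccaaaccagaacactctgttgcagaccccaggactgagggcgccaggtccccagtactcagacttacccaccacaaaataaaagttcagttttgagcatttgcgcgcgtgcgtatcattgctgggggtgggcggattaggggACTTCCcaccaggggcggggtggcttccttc
The other 7 motifs were found in 0 to 9 of the 38 members: the cyclic AMP response element TGACGTCA in 1 (Il6, 1.59% of all windows), GAS TTCNNNGAA in 2 (7.67%), AP-1 TGAGTCA in 3 (4.05%), the interferon regulatory factor motif in 4 (3.41%), the TATA box TATAAA in 8 (12.9%), NFAT GGAAAA in 9 (21.6%) and C/EBP TTGCGCAAT in 0 (0.0388%).

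For treatment in the heart, 0 of 34 members passed for either treatment against untreated hearts or for one treatment against the other. limma called 0.00% of all 19734 probe sets in each of these comparisons. At an unadjusted p below 0.05 there were 5 members for cyclosporine (of 2287 probe sets), 5 for cyclosporine plus peptide (of 3157) and 1 between the treatments (of 954). Both treatments were set against the same untreated hearts, so their values are given side by side. The genes named below had the same sign on all 3 days under at least 1 of the treatments.

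Il6 was lower in every treated heart than in the untreated heart of the same day. On days 1, 3 and 7 the difference was -1.03, -0.80 and -0.81 with cyclosporine (mean -0.88 ± 0.13, adjusted p = 0.128) and -0.45, -0.16 and -0.75 with cyclosporine plus peptide (mean -0.45 ± 0.13, adjusted p = 0.217). Il1rap was likewise lower, by values of -0.43, -0.33 and -0.54 with cyclosporine (mean -0.44 ± 0.08, adjusted p = 0.167) and -0.53, -0.45 and -0.72 with the peptide added (mean -0.57 ± 0.08, adjusted p = 0.169). The untreated hearts read 443 to 588 and the 6 treated hearts 319 to 399, without overlap. Il1rn gave -0.10, -0.74 and -0.86 with cyclosporine and -0.39, -0.95 and -0.90 with the peptide added, at means of -0.57 ± 0.14 and -0.74 ± 0.14 (adjusted p = 0.245 and 0.177). Il10 gave means of -0.70 ± 0.26 and -0.69 ± 0.26, and Il4r -0.27 ± 0.08 and -0.35 ± 0.08. In every heart of days 1 and 3 Il10 was below the 40th percentile, at 12.9 to 109, so its differences on those days are between low levels. The Il1r2 mean was -0.51 ± 0.25 with cyclosporine, lower on all 3 days, and -0.34 ± 0.25 with the peptide added, where day 7 was higher by 0.60. Il16 had the largest positive same-sign difference with cyclosporine, 0.22 ± 0.11, and Il17b, at 0.24 ± 0.12, with the peptide added. Between the treatments, Il6 was higher with the peptide added on each day (0.58, 0.64 and 0.05, mean 0.42 ± 0.13, adjusted p = 0.954). The summed neutrophil list was also lower in treated hearts on days 1 and 3, at 10078 and 10569 untreated, 4070 and 4639 with cyclosporine and 5341 and 5047 with the peptide added. On day 7 it was 1638, 1381 and 2143, while Il6, Il1rn and Il1rap were still lower in both treated hearts, and its part in these differences was not tested.

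On single days, with 1 array against 1 array and no test, few members passed a log2 difference of 1. On day 1, Il1rl1 was 2.26-fold higher with cyclosporine, but its untreated level of 111 was below the 40th percentile of that array, 135. Il6 was 2.05-fold lower with cyclosporine on day 1. Of all probe sets, 0.198% were past that size upwards and 0.0963% downwards. On day 3, Il10 also passed that size downwards with the peptide added (0.471% of probe sets downwards), but its intensities of 109 and 27.6 were both below the 40th percentiles of their arrays, 145 and 137. On day 7, Il34 read 203 in the untreated heart and 493 and 459 in the treated ones, 2.33-fold and 2.17-fold higher, where 0.410% and 0.755% of probe sets were past that size upwards. Il34 stood at 288 to 387 in all 6 hearts of days 1 and 3, so on day 7 the untreated heart lay below that range and both treated hearts above it. On the same day Il1rl1 read 547 untreated, 266 with cyclosporine and 255 with the peptide added, 2.08-fold lower in the latter (0.299% downwards), whereas on day 1 both treated hearts were above the untreated one. With a pseudocount of 64 in place of 16, the cyclosporine difference of Il34 alone stayed past 1.

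**Figure D4:**
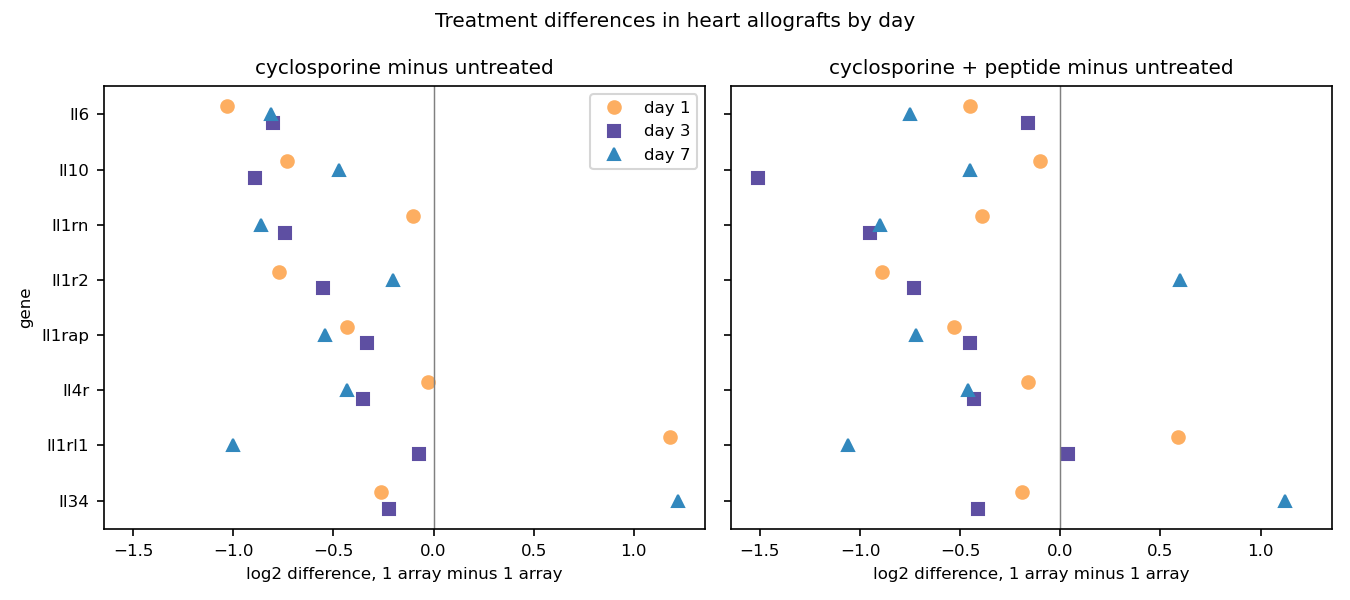
Difference of each treated heart from the untreated heart of the same day (x axis, log2, 1 array minus 1 array) for 8 members, with cyclosporine on the left, cyclosporine plus peptide on the right, and days 1, 3 and 7 as circles, squares and triangles. Il6, Il10, Il1rn, Il1rap and Il4r lie left of 0 on every day under both treatments, and Il1rl1 changes side between day 1 and day 7. Il10 was below the 40th percentile in every heart of days 1 and 3.

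In T cells, 0 of 29 members passed for any day or treatment comparison. Of all 19454 probe sets, limma called 0.576% from day 1 to day 7 and 0.00% in the other 5 comparisons. At an unadjusted p below 0.05 there were 3 members for day 3 against day 1 (of 1617 probe sets), 1 for day 7 against day 3 (of 1048) and 5 for day 7 against day 1 (of 4655). For treatments there were 10 for cyclosporine (of 2216), 9 for cyclosporine plus peptide (of 4631) and 0 between them (of 855). Levels of the main lymphocyte receptors held within narrow ranges over the 9 arrays: Il2rg read 9146 to 10125 (median 9795), Il2rb 4147 to 6903 (median 5931), Il7r 3465 to 4644 (median 4259) and Il27ra 1416 to 1975 (median 1838). These arrays covered all 3 days and treatments. For Il2rb the untreated day 1 array was the lowest and the difference from day 1 to day 7 was 0.33 ± 0.13 (adjusted p = 0.175), and 0.17 ± 0.11 without that array.

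For several members a single T cell array, the untreated one of day 1, lay far from the other 8. On the untreated day 1 array, Il1r2 read 1708, against 82.8 to 192 on the other 8, Il1b read 5322, against 578 to 1219, and Il1rn read 431, against 51.2 to 69.7. Il1rap, at 391 against 155 to 235, and Il17ra, at 4991 against 2506 to 3864, were also highest there. In all, 11 of the 29 members lay above their level on all 8 other arrays, where 16.8% of probe sets did, and 8 lay below, where 29.1% did. Il1b and Il1r2 exceeded the next array by more than 1 on the log2 scale, 2 of 29 members against 0.730% of probe sets. On the same array the neutrophil genes S100a9, S100a8, Csf3r, Mmp8 and Cxcr2 read 17774, 12964, 2842, 1949 and 819, each above the other 8 arrays, while the T cell list summed to 48795, against 60944 to 69411, and the B cell list to 22956, against 7000 to 14852. Their part in the levels of Il1b and Il1r2 was not tested.

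**Figure D5:**
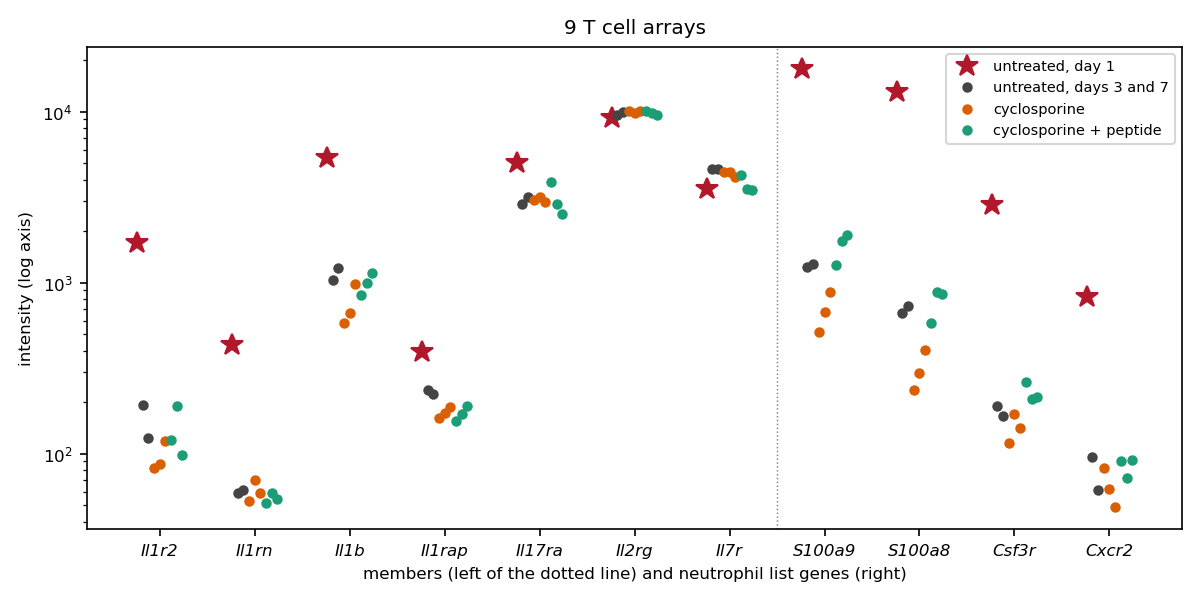
Intensity on a log axis of 7 members and 4 neutrophil list genes on the 9 T cell arrays, with the untreated day 1 array as a star and the other arrays as dots coloured by treatment. The star lies above the other 8 arrays for Il1r2, Il1rn, Il1b, Il1rap, Il17ra and the neutrophil genes, and within or near them for Il2rg and Il7r.

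That array bears on the treatment values in T cells. With all 9 arrays, the cyclosporine difference of Il1b was -1.37 ± 0.52 (adjusted p = 0.401), from single days of -3.17, -0.64 and -0.31, and without the array it was -0.50 ± 0.11. Il1r2 exceeded the 40th percentile on 3 T cell arrays, the untreated ones of days 1 and 3 and that of cyclosporine plus peptide on day 3. Every cyclosporine array lay below the percentile for Il1r2. Its cyclosporine difference was -1.73 ± 0.72, and it was no longer tested without the untreated day 1 array. Less changed without it were the differences of Il1a, the IL-1 ligand released by damaged cells, at -0.71 ± 0.14 and -0.70 ± 0.18, and of Il1r1, at -0.65 ± 0.14 and -0.51 ± 0.14. Il1a was lower with cyclosporine on all 3 days (-0.69, -0.93 and -0.51) and with the peptide added (-0.48, -0.63 and -0.22), but neither mean passed (adjusted p = 0.343 and 0.136). Il1a exceeded the 40th percentile on 4 of the 9 T cell arrays, the untreated ones and that of cyclosporine plus peptide on day 1. It was therefore tested through the arrays where it was highest, and every cyclosporine array lay below the percentile. Il22ra2 gave -0.44 ± 0.16 with cyclosporine and -0.47 ± 0.16 with the peptide added, and -0.31 ± 0.17 and -0.35 ± 0.17 without the array. In the other direction, Il23a, the IL-23 subunit, gave 0.48 ± 0.14 with cyclosporine and 0.42 ± 0.14 with the peptide added (adjusted p = 0.362 and 0.143), and Il15 gave 0.30 ± 0.11 and 0.37 ± 0.11. Il23a exceeded the 40th percentile on 7 T cell arrays, all treated ones and the untreated one of day 7. On day 1 alone, 1 array against 1, Il1b, Il1r2 and Il1rap were 8.98-fold, 17.5-fold and 2.30-fold lower with cyclosporine and 6.18-fold, 12.7-fold and 2.38-fold lower with the peptide added, where 3.05% and 3.00% of probe sets passed a log2 difference of 1 downwards. Without the 3 day 1 arrays, Il15 (0.44 ± 0.08, adjusted p = 0.0302) and Il7r (-0.41 ± 0.06, adjusted p = 0.0253) passed for cyclosporine plus peptide against untreated T cells, 2 of 26 members tested. The share of all probe sets called in that smaller fit is not given here, so the count cannot be set against it. Il6 was also variable among T cell arrays, at 28.5 on the untreated day 3 array and 81.4 to 172 on the others, and exceeded the 40th percentile on 3 of the 9. Both treated arrays of day 3 were past a log2 difference of 1 above that lowest array (0.129% and 0.396% of probe sets upwards), whose Il6 level was below its 40th percentile of 131. Il10 read 136 and 139 on the untreated day 1 and day 3 arrays and 6.63 to 40.9 on the other 7, and was not tested within T cells.

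Between the tissues, 16 of 36 members tested were higher and 16 lower in T cells, or 88.9% called, where 83.4% of all probe sets were called (47.9% higher and 35.5% lower). The median over all probe sets was itself 0.15 higher in T cells (0.21 and 0.25 under the other scalings), and the members' median was -0.45. Il9r and Il23a were tested only through T cell arrays, and Il7, Il17b, Il33 and Il34 only through hearts, so the filter had fixed the direction of these 6 differences. Of the 6 common gamma chain receptor members, the 5 others than Il9r were higher in T cells. Il7r read 3465 to 4644 in T cells and 148 to 476 in hearts, a difference of 3.86 ± 0.16 (adjusted p = 3.94e-12). Il2rb gave 3.06 ± 0.29, and Il2rg 1.99 ± 0.25. Il9r, the receptor for the T cell and mast cell factor IL-9, read 423 to 585 in T cells and stayed at 45.6 to 64.2, below the 40th percentile, in hearts. Il27ra, at 3.90 ± 0.18, and Il16, at 3.01 ± 0.16, did not overlap between the tissues either. Il10ra was higher by 1.54 ± 0.35, although the day 7 hearts (1514 to 1653) lay within the T cell range of 1127 to 1725.

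Members lower in T cells included the IL-1 receptors and, among receptor chains of the IL-6 family, Il11ra1 and Il6st. The other receptor chains tested in that family, Il6r and Il27ra, were higher in T cells. Il6r read 1564 to 1991 in T cells and 414 to 932 in hearts, a difference of 1.44 (adjusted p = 2.73e-08). Il33 read 1022 to 2126 in hearts and 26.8 to 68.4 in T cells, and Il34 203 to 493 and 25.9 to 65, with every T cell value below the 40th percentile of its array. Il11ra1 gave -3.73 ± 0.10 and Il6st -1.52 ± 0.08, each without overlap. All 3 IL-1 family receptor members tested were lower, namely Il1r1 (-2.06 ± 0.15), Il1rl1 (-1.92 ± 0.31) and Il1rap (-0.90 ± 0.10), as were the decoy Il1r2 (-1.93 ± 0.42), the antagonist Il1rn (-2.11 ± 0.35) and Il6 (-1.68 ± 0.34). Il18 (0.22 ± 0.26), Il18bp (-0.46 ± 0.35), Il1b (-0.44 ± 0.31) and Il10 (-0.73 ± 0.41) did not pass. Without the untreated day 1 T cell array, Il1b (-0.75 ± 0.13, adjusted p = 6.11e-05) and Il10 (-0.94 ± 0.40, adjusted p = 0.0386) were lower in T cells, and Il1r2, Il1rn and Il6 gave -2.24 ± 0.35, -2.41 ± 0.24 and -1.71 ± 0.36. Il1rn and Il1rl1 each exceeded the 40th percentile on 1 T cell array, which for Il1rn was the one left out. Without it Il1rn was tested through hearts only, so the filter had fixed its direction. Among the other pathway genes, 5 of 11 partners were higher and 4 lower in T cells, with Ifnlr1 at -3.06 ± 0.10 and Sigirr at 2.46 ± 0.19. Of 21 transducers 16 were higher and 3 lower, with Stat4 at 3.56 ± 0.28, Jak3 at 2.49 ± 0.22 and Stat3 at -0.85 ± 0.07. The partners Ifnlr1 and Lifr were tested only through hearts, and the transducer Irak4 only through T cell arrays. For these genes too, the filter had fixed the direction of the difference. Of all probe sets tested 83.4% were called between the tissues, 47.9% higher and 35.5% lower, a share close to that of the partners.

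Whether the changes over days differed between the tissues was tested directly in 1 model over all 18 arrays. From day 1 to day 7 the change in T cells minus that in heart passed for 23 of 36 members, 20 below 0 and 3 above, where 46.7% of all probe sets passed (23.5% below and 23.2% above). Il10 and Il7, among the 20, entered the test through arrays that favoured a value below 0. For Il10ra the difference was -3.16 ± 0.24 (adjusted p = 1.57e-06), for Il2rb -2.31 ± 0.20 and for Il2rg -2.02 ± 0.14. The 3 above 0 were Il1r1, Il11ra1 and Il6st, which had fallen in heart. On their second probe sets Il1r1 (0.64, adjusted p = 0.0536) and Il6st (0.48, adjusted p = 0.103) did not pass. Il11ra1 did not pass without the untreated arrays (adjusted p = 0.061) or without the cyclosporine plus peptide arrays (adjusted p = 0.0591). With the second probe set per gene, 17 of 32 members passed, 16 below 0 and 1 above. From day 1 to day 3 the difference passed for 5 members, all below 0, where 8.80% of probe sets passed (4.61% below 0 and 4.20% above): Il1rl1 (-2.26 ± 0.51), Il10ra, Il17ra, Il33 and Il6r. That count was 0 without the untreated arrays and 0 without the cyclosporine plus peptide arrays. Without the untreated day 1 T cell array alone, Il33 and Il6r no longer passed (adjusted p = 0.0844 and 0.057) and Il7r did (-0.76 ± 0.17, adjusted p = 0.0293). Over the interval to day 7, leaving that array out lost Il12b and Il17re (adjusted p = 0.0523 and 0.0517), gained Il4r (-0.39 ± 0.12), Il1r2 (2.61 ± 0.41, against 1.43 with it) and Il6 (1.37 ± 0.44), and moved Il1rn from -2.37 to -1.47 ± 0.22. For the interval from day 1 to day 3, 47.7% of all probe sets called were above 0, and 66.5% after centring on array medians. For that from day 1 to day 7 the shares were 49.7% and 51.6%. For the treatments, 0 of 36 members had a difference between the tissues that passed in limma, where 0.00448% of probe sets did. At an unadjusted p below 0.05 there were 6 members for cyclosporine (of 2280 probe sets) and 6 for cyclosporine plus peptide (of 4624).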

How the data were processed

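Each of the 18 arrays was deposited as a table of intensities for 31099 probe sets, on a linear scale. How the authors scaled these deposited intensities, and with which software, is not given in the sources used here, and 771 of 559782 values were below 0. Array controls (57 probe sets) were dropped. Of the others, 20826 carry 1 gene symbol, 436 several and 9780 none, and only the first were named.

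Values below 0 were set to 0, 16 was added and log2 was taken. Probe sets above their array's 40th percentile on at least 3 arrays of a fit entered linear models in limma 3.58.1 (R 4.3.3), with a variance trend and Benjamini-Hochberg adjustment over all probe sets tested, at a threshold of 0.05. Within a tissue the 9 arrays were fitted by treatment and day, with 4 residual degrees of freedom. Tissues were compared with 12, and the differences between tissues in a change were tested with 8. Every ± is a standard error from these fits, on 9 arrays within a tissue or 18 across both. The procedure was tested on simulated data. Each combination has 1 array, so treatments stand in as replicates for days and days for treatments, and the number of arrays limits the precision.

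Alternatives were quantile normalization, centring on array medians, a pseudocount of 64, no filter, no variance trend, the second probe set of a gene, and leaving out each treatment or day. Leaving out the untreated day 1 T cell array, and fitting the tissues with each treatment and day combination as a block, were chosen after seeing the data. The members and lists were chosen with earlier results of these data known. Named genes were the 10 largest differences per day or tissue comparison and direction, members with a range over 2 on the log2 scale, a fixed list of interleukin genes, and for treatments those with 1 sign on all 3 days. Promoter windows came from RefSeq (GRCr8), and the genes printed were chosen after the matches were seen.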

Additional observations from a re-analysis of the deposited data

Results flagged for a closer look

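The change over days differed between T cells and heart for 28 results of the test over 18 arrays in limma, given as the change in T cells minus that in heart on the log2 scale. From day 1 to day 3 the difference was -2.26 for Il1rl1, -1.17 for Il10ra, -0.87 for Il17ra, -0.77 for Il33 and -0.51 for Il6r. From day 1 to day 7 the receptor chains Il10ra, Il2rb, Il2rg and Il7r gave -3.16, -2.31, -2.02 and -1.36, and Il17ra, Il1rl1, Il27ra, Il6r, Il2ra, Il17re and Il3ra gave -1.56, -1.51, -1.46, -1.07, -0.99, -0.85 and -0.85. Among ligands the difference was -3.28 for Il10, -2.23 for Il18, -1.87 for Il7, -1.33 for Il16, -0.82 for Il15, -0.77 for Il1a and -0.52 for Il12b. Il10 exceeded the 40th percentile only in day 7 hearts and on the untreated T cell arrays of days 1 and 3. Il7 exceeded it only in day 7 hearts and the untreated day 3 heart. The filter therefore favoured values below 0 for both. For the antagonist Il1rn and the binding protein Il18bp it was -2.37 each. In these 20 the difference between days was higher in heart than in T cells. Il1r1, Il11ra1 and Il6st, at 0.78, 0.63 and 0.59, were the 3 above 0. Il1r1 and Il6st did not pass on their second probe sets (adjusted p = 0.0536 and 0.103). Without the untreated day 1 T cell array, Il33 and Il6r no longer passed for day 3, nor Il12b and Il17re for day 7, and Il1rn gave -1.47.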

How the results depend on the processing

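In heart the number of members that passed was 23 to 35 from day 1 to day 7 and 20 to 34 from day 3 to day 7 over the alternatives tried. From day 1 to day 3 it was 10 to 14, except 6 without the cyclosporine arrays and 2 without the cyclosporine plus peptide arrays. The difference between tissues in the change from day 1 to day 3 passed for 5 members, and for 0 without the untreated arrays and 0 without the cyclosporine plus peptide arrays. Those settings have fewer arrays. For cyclosporine plus peptide against untreated T cells, 0 of 29 members passed, and 2 of 26 without the day 1 arrays, where the share over all probe sets is not given here. The difference of Il10rb with cyclosporine plus peptide in heart went from -0.04 to 0 after centring on array medians. Its cause was not tested. Of the differences of single genes that were recomputed, 28 no longer passed without the cyclosporine plus peptide arrays, 17 without the cyclosporine arrays and 16 without the untreated arrays. In these settings 64, 73 and 70 others kept their outcome. At most 5 no longer passed under any other setting. That 5 was for the second probe set, where few genes could be recomputed and only 23 others kept their outcome. These counts are therefore out of unlike totals. With the 50th percentile in place of the 40th, 13 members were above it on all arrays and 15 on 0. With each treatment and day combination as a block, chosen after seeing the data, the comparison of tissues called 32 members, as without the block.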
